A study of Mus musculus with 8 samples.

Results

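Macrophages are placed in the lymph node (LN) where lymph enters and flows through it. In the subcapsular sinus and the medulla they take up particles, microbes and dying cells from lymph, and they hold antigen on their surface for B cells. They depend on signals through the colony stimulating factor 1 receptor. C1q, the recognition protein of the classical complement pathway, is made largely by macrophages and dendritic cells, and each C1q molecule is assembled from chains A, B and C. The 10 genes described here are *C1qa*, *C1qb* and *C1qc* for the chains of C1q, *Siglec1* (CD169), *Marco*, *Msr1*, *Cd163*, *Mrc1* and *Cd68* for surface and lysosomal proteins of macrophages, and *Csf1r* for the receptor. They were taken by name. All 10 were measured, out of 12393 genes with a probe set of their own on the array, and 19 of the 22626 probe sets tested belong to them. Each gene is represented by its brightest probe set, the one with the highest mean over all arrays.

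LN RNA was hybridized to 8 arrays, each with RNA pooled from 3 or more mice of both sexes, 8 weeks old. H3RKO mice lack the histamine H3 receptor gene *Hrh3* in the whole animal on a C57Bl/6 background. Wild type (WT) C57Bl/6 mice are their controls. The study's methods name the H3RKO strain B6.129P2-*Hrh3 tm1Twl*, kept at the authors' university, whereas C57BL/6J mice were purchased. Differences of strain origin or colony were not tested. Untreated H3RKO and untreated WT LN were measured in 2 pools each. LN taken 24 h after complete Freund's adjuvant (CFA, killed mycobacteria in oil) and LN taken 24 h after CFA with pertussis toxin (CFA+PTX) were measured in 1 pool per genotype. For the CFA+PTX pools the label of each sample has PTX only in its title and both agents in its description. The sources used here do not say which LN were hybridized. All values are log2 signals, so a difference of 1 is a 2-fold change. Where a p-value is given for a lone treated array, that array is assumed to vary like the untreated pairs. In bulk RNA, fewer cells of a type and less RNA per cell cannot be told apart.

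The median signal was between 7.94 and 8.00 on every array. B cell markers averaged 11.04 to 11.36 and T cell markers 10.96 to 11.25, so each array carried the lymphocyte RNA of an LN. *Hrh3* itself read 7.20 to 7.29 in the 4 arrays labelled H3RKO and 6.56 to 6.66 in the 4 WT arrays, and the sources used here do not place this probe set relative to the deleted sequence, so it does not check the labels. Salivary and lacrimal gland RNA separated the arrays. The mean of 8 gland markers was 12.79 to 13.50 in 6 arrays, 9.98 in WT untreated replicate 1 and 5.39 in the WT CFA+PTX array. Both arrays with little gland RNA are WT. For the 10 genes, the main differences that lean on these arrays are also given without 1 or both of them. Other genes named below were not refitted without them.

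The genes of the C1q chains lie side by side on mouse chromosome 4 in the order *C1qb*, *C1qc*, *C1qa*, with no other gene of the RefSeq table between them. The RefSeq table used here holds the promoters of 2 of them, *C1qb* and *C1qc*, and these are shown for that reason alone. Each sequence is 300 bases long and runs 5′ to 3′ across the start of the gene, on the minus strand of GRCm38.p6 (RefSeq). The capitals mark ACTTCCT, the reverse complement of AGGAAGT, a core bound by the macrophage transcription factor PU.1.
C1qb, chr4:136886151-136886450: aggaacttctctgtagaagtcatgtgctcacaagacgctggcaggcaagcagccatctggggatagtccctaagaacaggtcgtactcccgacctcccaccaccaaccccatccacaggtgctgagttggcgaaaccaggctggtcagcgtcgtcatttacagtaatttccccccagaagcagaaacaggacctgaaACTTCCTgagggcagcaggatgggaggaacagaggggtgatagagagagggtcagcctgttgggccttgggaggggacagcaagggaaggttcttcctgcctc
C1qc, chr4:136892865-136893164: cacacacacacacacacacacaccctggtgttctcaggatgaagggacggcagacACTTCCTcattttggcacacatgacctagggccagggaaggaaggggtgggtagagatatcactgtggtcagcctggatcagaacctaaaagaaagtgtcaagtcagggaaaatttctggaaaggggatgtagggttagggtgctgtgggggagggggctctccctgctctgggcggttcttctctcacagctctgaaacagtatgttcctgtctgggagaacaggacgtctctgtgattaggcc
The match begins at base 198 of 300 for *C1qb*, which is 53 bases before the start of the gene, and at base 56 of 300 for *C1qc*. On either strand, AGGAAGT occurs in 9.35% of 32851 promoters of this length. It was 1 of 6 strings searched on both strands. GAGGAA, which can overlap other ETS factor sites, was in both promoters and in 28.3% of all. Its only match in *C1qc* overlaps the marked stretch and is not a separate site. TGCTGA was in that of *C1qb* alone and in 19.5% of all. The composite element of ETS and IRF factors (2.72% of all), TGAGTCA (5.20%) and TATAAA (13.6%) were in neither. A match is a description of the letters and not evidence of binding.

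None of the 10 genes passed a test in any of the 10 comparisons made, and for most of them the intervals were narrow. For injected against untreated LN, every 95% interval of the 10 genes lay within a 2-fold change in either direction, and all but that of *Cd163* within 1.5-fold. The same held for the genotype difference over all treatments, where *Siglec1* and *Cd163* had the intervals wider than 1.5-fold. After CFA+PTX, with 1 array per genotype, 3 of the 10 intervals lay within 1.5-fold. The plot of the 10 genes by array shows levels that mostly stayed within a narrow band, with *Siglec1* and *Cd163* as the widest.

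**Figure D1:**
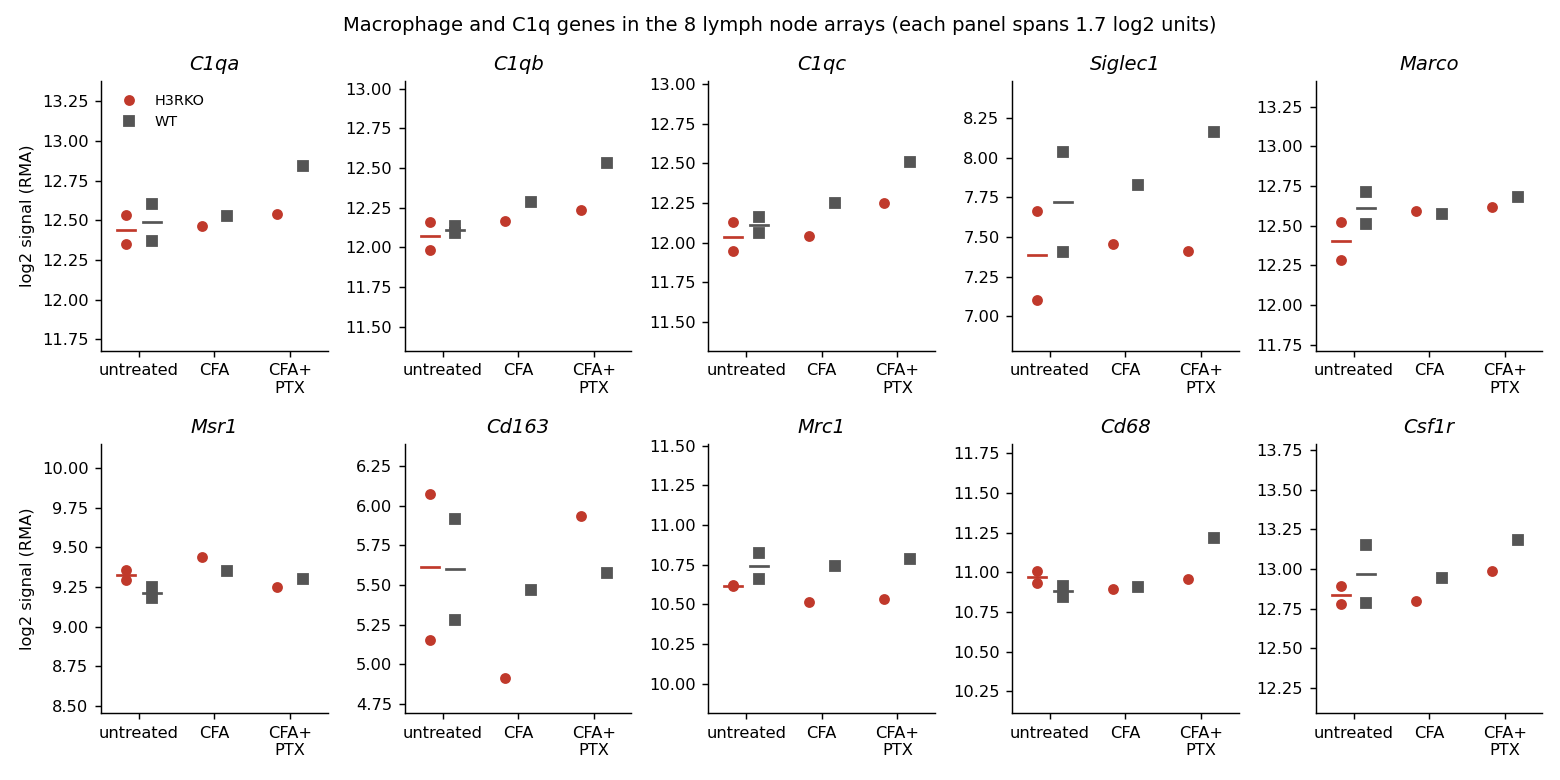
Log2 RMA signal of each of the 10 genes (y axis, every panel spans 1.7 log2 units) in untreated, CFA and CFA+PTX LN (x axis), for H3RKO arrays (circles) and WT arrays (squares). Points are arrays and lines are means of 2 untreated arrays. The WT CFA+PTX array is the highest of the 8 arrays for 6 genes.

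Over the 8 arrays the lowest and highest signals were a median of 0.46 apart for these genes, against 0.30 for all genes. *Cd163* (1.16) and *Siglec1* (1.06) had the widest ranges and *Msr1* (0.26) the narrowest. The probe set of *Cd163* is dim, with a mean of 5.54 and 21.7% of probe sets dimmer, and the untreated H3RKO arrays were at its top and near its bottom. The WT CFA+PTX array gave the highest signal for 6 of the 10 genes (*Siglec1*, *Cd68*, *C1qa*, *C1qb*, *C1qc* and *Csf1r*), and it was also the highest array for 22.9% of all genes. H3RKO untreated replicate 1 gave the lowest signal for *Siglec1*, *Marco*, *C1qa*, *C1qb*, *C1qc* and *Csf1r*, and it was the lowest array for 18.4% of all genes.

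The transcripts for the C1q chains had their highest means after CFA+PTX, in differences that did not pass after adjustment. *C1qb* read 11.98 and 12.16 in untreated H3RKO LN and 12.13 and 12.09 in untreated WT LN. After CFA it read 12.16 in H3RKO and 12.29 in WT LN, and after CFA+PTX 12.23 in H3RKO and 12.53 in WT LN. Its 4 injected arrays (lowest 12.1626) all lay above its 4 untreated arrays (highest 12.1612), although the gap between them was only in the third decimal. *C1qb* was the 1 gene of the 10 whose injected arrays were all above the untreated ones, as were 3.36% of all genes.

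Chain C followed the same order. *C1qc* read 11.95 and 12.13 in untreated H3RKO LN and 12.16 and 12.06 in untreated WT LN. It read 12.04 in H3RKO and 12.25 in WT LN after CFA, and 12.25 in H3RKO and 12.51 in WT LN after CFA+PTX. The H3RKO CFA array lay among the untreated ones and the other 3 injected arrays above them. *C1qa* read 12.35 and 12.53 in untreated H3RKO LN and 12.60 and 12.37 in untreated WT LN. In *C1qa*, CFA gave 12.47 in H3RKO and 12.53 in WT LN, and CFA+PTX gave 12.54 in H3RKO and 12.84 in WT LN. For *C1qa* only the WT CFA+PTX array was above every untreated array.

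With the genotypes fitted together, injected LN had *C1qb* signals of 12.30 ± 0.16 against 12.09 ± 0.08 in untreated LN (mean ± SD, n = 4 each), a difference of 0.21 ± 0.07 (log2 ± SE) and a ratio of 1.16 with a 95% interval of 1.03 to 1.30. The p adjusted over all probe sets was 0.363 (limma). *C1qc* differed by 0.19 ± 0.07 (adjusted p = 0.386, limma) and *C1qa* by 0.13 ± 0.08 (adjusted p = 0.617, limma). CFA alone gave differences from untreated LN of 0.13 for *C1qb*, 0.07 for *C1qc* and 0.03 for *C1qa*. With CFA+PTX they were 0.29 ± 0.09 for *C1qb* (adjusted p = 0.275, limma), 0.30 ± 0.08 for *C1qc* (adjusted p = 0.256) and 0.23 ± 0.10 for *C1qa* (adjusted p = 0.421). CFA+PTX was above CFA by 0.23 ± 0.09 in *C1qc* (adjusted p = 0.891, limma), 0.19 ± 0.12 in *C1qa* and 0.16 ± 0.10 in *C1qb*.

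These differences lean on the WT CFA+PTX array, whose gland signal was the lowest of the 8. Without it, the difference of injected from untreated LN was 0.15 ± 0.07 for *C1qb*, 0.15 ± 0.08 for *C1qc* and 0.07 ± 0.09 for *C1qa*. Without both arrays of low gland signal it was 0.16 for *C1qb*, 0.16 for *C1qc* and 0.10 for *C1qa*. With the gland signal as a covariate it was 0.18 ± 0.07 for *C1qb* and 0.16 ± 0.07 for *C1qc*. For CFA+PTX against untreated LN, leaving out the WT CFA+PTX array gave 0.17 ± 0.11 for *C1qb*, 0.23 ± 0.12 for *C1qc* and 0.10 ± 0.13 for *C1qa*. For CFA+PTX against CFA it gave 0.04 ± 0.12 for *C1qb*, 0.16 ± 0.13 for *C1qc* and 0.07 ± 0.14 for *C1qa*, with 1 CFA+PTX array left.

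*C1qb* has 2 further probe sets, which gave larger differences in the same direction. Probe set 1437726_x_at was 0.39 ± 0.08 higher in injected LN (adjusted p = 0.234, limma) and 1434366_x_at 0.26 ± 0.06 higher (adjusted p = 0.223). Their injected arrays read 10.65 to 10.97 and 10.39 to 10.57, and their untreated arrays 10.24 to 10.65 and 10.12 to 10.35. In both, as in the brightest probe set, every injected array lay above every untreated array.

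Over the 8 arrays the 3 chains varied together. Pearson's r was 0.968 between *C1qb* and *C1qc* (rho = 0.833), 0.928 between *C1qa* and *C1qc* (rho = 0.810) and 0.905 between *C1qa* and *C1qb* (rho = 0.643). Over these 3 pairs, exact permutation tests gave two-sided p-values adjusted by Benjamini-Hochberg of 0.00164, 0.00379 and 0.00575 for r and of 0.0327, 0.0327 and 0.0962 for rho, in the same order. Leaving out the 2 arrays farthest from the median, H3RKO untreated replicate 1 and the WT CFA+PTX array, gave an r of 0.817, 0.628 and 0.426 over the remaining 6 arrays, so the relation of *C1qa* to *C1qb* rests on those arrays. The permutations treat all 8 arrays as exchangeable, although the arrays differ in genotype and treatment, and the chains share a cell source.

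The genes whose 8-array profile was most like the mean of the C1q chains, among 2112 genes with a range of at least 0.5, were *Scarb1* (r = 0.979), a receptor for high density lipoprotein, *Tmcc3* (0.977), *Cd209b* (0.971), a C-type lectin known from marginal zone and LN macrophages as SIGN-R1, *Cmip* (0.969) and *Trio* (0.966). All 5 had their highest signal in the WT CFA+PTX array and their lowest in H3RKO untreated replicate 1. *Cd209b* read 12.47 and 12.80 in untreated H3RKO LN and 12.71 and 12.62 in untreated WT LN. It read 12.71 in H3RKO and 12.88 in WT LN after CFA, and 12.76 in H3RKO and 13.15 in WT LN after CFA+PTX.

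*Siglec1* encodes the sialic acid receptor CD169, which marks subcapsular sinus and medullary macrophages. It read 7.10 and 7.66 in untreated H3RKO LN and 8.03 and 7.40 in untreated WT LN. After CFA it read 7.45 in H3RKO and 7.83 in WT LN, and after CFA+PTX 7.41 in H3RKO and 8.16 in WT LN. In untreated LN the mean of the H3RKO arrays was below that of the WT arrays, and the genotypes overlapped. After CFA and after CFA+PTX the 1 H3RKO array was below the 1 WT array, where overlap is not possible. The mean was 7.41 ± 0.23 in H3RKO and 7.86 ± 0.33 in WT LN (SD, n = 4 each), a difference of −0.45 ± 0.17 (adjusted p = 0.999, limma). It was −0.34 ± 0.27 in untreated LN, −0.38 ± 0.37 after CFA and −0.75 ± 0.37 after CFA+PTX, and the difference after CFA+PTX did not differ from that in untreated LN beyond its error (−0.41 ± 0.46, adjusted p = 1.00, limma). Injected LN differed from untreated LN by 0.16 ± 0.17.

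The 2 WT arrays with the highest *Siglec1*, 8.16 and 8.03, are the 2 with the least gland RNA. Without both, the genotype difference in *Siglec1* over all treatments was −0.17 ± 0.19, and with the gland signal as a covariate it was −0.23 ± 0.19. In untreated LN, without WT replicate 1, it was −0.02 ± 0.25. After CFA+PTX the *Siglec1* difference of −0.75 turned to 0.49 ± 0.78 with the covariate. That fit takes its slope on gland signal from the untreated pairs alone and extends it beyond their values, so it cannot settle the sign. Injected LN differed from untreated LN in *Siglec1* by 0.06 ± 0.20 without the WT CFA+PTX array. The other probe sets of *Siglec1* gave genotype differences of −0.11 ± 0.11 (1422161_at) and −0.01 ± 0.08 (1427706_a_at), and 1422161_at was 0.32 ± 0.11 higher in injected than in untreated LN (adjusted p = 0.388, limma). The genes most like *Siglec1* over the arrays were *Tbc1d8* (r = 0.952), *Folr2* (0.935), a folate receptor of tissue-resident macrophages, *Adam33* (0.912), *Madd* (0.911) and *Neat1* (0.909), from the same 2112 genes. *Folr2* read 10.52 to 10.83 in the 4 H3RKO arrays and 10.79 to 11.23 in the 4 WT arrays.

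*Mrc1*, the mannose receptor CD206 of medullary macrophages and lymphatic endothelium, was the 1 gene of the 10 that separated the genotypes on all arrays. It read 10.62 and 10.62 in untreated H3RKO LN and 10.82 and 10.66 in untreated WT LN. It read 10.52 in H3RKO and 10.74 in WT LN after CFA, and 10.53 in H3RKO and 10.79 in WT LN after CFA+PTX. Every H3RKO array lay below every WT array, as was the case for 1.03% of all genes. The difference was −0.18 ± 0.06 with a 95% interval of −0.32 to −0.04 (adjusted p = 0.999, limma), and the ratio was 0.882. Without both arrays of low gland signal it was −0.12 ± 0.08 in *Mrc1*. The difference between injected and untreated LN in *Mrc1* was −0.04 ± 0.06.

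*Marco* encodes a scavenger receptor of medullary macrophages that binds bacteria. It read 12.28 and 12.52 in untreated H3RKO LN and 12.71 and 12.51 in untreated WT LN, then 12.59 in H3RKO and 12.58 in WT LN after CFA and 12.62 in H3RKO and 12.68 in WT LN after CFA+PTX. The injected arrays of *Marco* all lay within the range of its untreated arrays. *Marco* differed by 0.11 ± 0.08 between injected and untreated LN and by −0.11 ± 0.08 between H3RKO and WT LN, the last of which was −0.05 ± 0.10 without both arrays of low gland signal.

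*Msr1* encodes scavenger receptor A, which takes up modified lipoproteins. By its brightest probe set it was the steadiest of the 10, with a range of 0.26 against 0.33 to 0.70 in its other probe sets. It read 9.29 and 9.36 in untreated H3RKO LN and 9.18 and 9.25 in untreated WT LN. After CFA it read 9.44 in H3RKO and 9.35 in WT LN, and after CFA+PTX 9.25 in H3RKO and 9.30 in WT LN. It was also the 1 gene of the 10 with a higher mean in H3RKO than in WT LN over all treatments, by 0.06 ± 0.06. The other *Msr1* probe sets had larger genotype differences in untreated LN. Probe set 1422062_at read 9.27 and 9.47 in untreated H3RKO and 9.07 and 8.97 in untreated WT LN. Probe set 1425434_a_at read 7.80 and 7.82 in untreated H3RKO and 7.59 and 7.53 in untreated WT LN, and 1425435_at read 5.32 and 5.41 in untreated H3RKO and 4.83 and 5.08 in untreated WT LN. Both H3RKO arrays were above both WT arrays in each, by 0.35 ± 0.11, 0.25 ± 0.08 and 0.41 ± 0.11 (adjusted p = 0.916 for all 3, limma). All 3 had an unadjusted p under 0.05, and they are probe sets of 1 gene. Of all genes, each by its brightest probe set alone, 1.69% had one in this direction. The brightest *Msr1* probe set gave 0.11 ± 0.09 and the mean over the *Msr1* probe sets 0.28 ± 0.09. Over all treatments the 3 differed by 0.18 ± 0.09, 0.12 ± 0.07 and 0.15 ± 0.12, and their differences between injected and untreated LN had different signs.

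*Cd163*, the receptor that clears haemoglobin bound to haptoglobin, read 6.08 and 5.16 in untreated H3RKO LN and 5.92 and 5.28 in untreated WT LN. It read 4.92 in H3RKO and 5.47 in WT LN after CFA, and 5.93 in H3RKO and 5.58 in WT LN after CFA+PTX. No group stood apart from the spread of the untreated arrays other than the H3RKO CFA array, which was below them. *Cd163* differed by −0.13 ± 0.24 between injected and untreated LN and by −0.04 ± 0.24 between H3RKO and WT LN. For this gene the data allow changes in either direction of up to the bounds of −0.71 and 0.44 for injection.

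*Cd68*, a lysosomal membrane protein of macrophages, read 10.93 and 11.01 in untreated H3RKO LN and 10.91 and 10.85 in untreated WT LN. It read 10.90 in H3RKO and 10.91 in WT LN after CFA, and 10.96 in H3RKO and 11.22 in WT LN after CFA+PTX. The WT CFA+PTX array alone stood above the rest, which spanned 10.85 to 11.01. After CFA+PTX the genotypes differed by −0.26 ± 0.12 (adjusted p = 1, limma), against 0.09 ± 0.09 in untreated LN. The difference between these, −0.35 ± 0.15 (adjusted p = 1.00, limma), was, of the 20 interactions of the 10 genes, the one with the smallest unadjusted p, and it did not reach 0.05.

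*Csf1r* read 12.78 and 12.89 in untreated H3RKO LN and 13.15 and 12.78 in untreated WT LN. After CFA it read 12.80 in H3RKO and 12.94 in WT LN, and after CFA+PTX 12.99 in H3RKO and 13.19 in WT LN. Its highest arrays were the 2 with little gland RNA, as for *Siglec1*. Over all treatments *Csf1r* differed by −0.15 ± 0.09 between H3RKO and WT LN, and its 2 other probe sets gave −0.21 ± 0.08 and −0.23 ± 0.08 (adjusted p = 0.999 for both, limma). Without both arrays of low gland signal the difference in *Csf1r* was −0.03.

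Adjuvant injection changed none of the 10 genes at an adjusted p under 0.05 (limma), where 0.0323% of all genes passed, 4 of 12393. Signals were higher in injected than in untreated LN for 8 of the 10 and lower for *Mrc1* and *Cd163*, with a median difference of 0.09 against 0.01 over all genes. At an unadjusted p under 0.05, 2 genes (*C1qb* and *C1qc*) were higher, where 6.04% of all genes were. The linear model without moderation, which is the kind the study's methods name, also gave 2 at an unadjusted p. Without the WT CFA+PTX array, or without H3RKO untreated replicate 1, the count was 0. CFA alone changed 0 of the 10 at an adjusted p, with 0 at an unadjusted p in either model, and 0% of all genes passed after adjustment. CFA+PTX against untreated LN also gave 0 of the 10 after adjustment (0% of all genes), and 2 (*C1qb* and *C1qc*) were higher at an unadjusted p in both models, where 7.55% of all genes were. For CFA+PTX against CFA, 0 of the 10 passed after adjustment (0% of all genes), and *C1qc* was higher at an unadjusted p with limma (3.33% of all genes) but not without moderation. Without the WT CFA+PTX array, 0 of the 10 had an unadjusted p under 0.05 in either comparison.

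**Figure D2:**
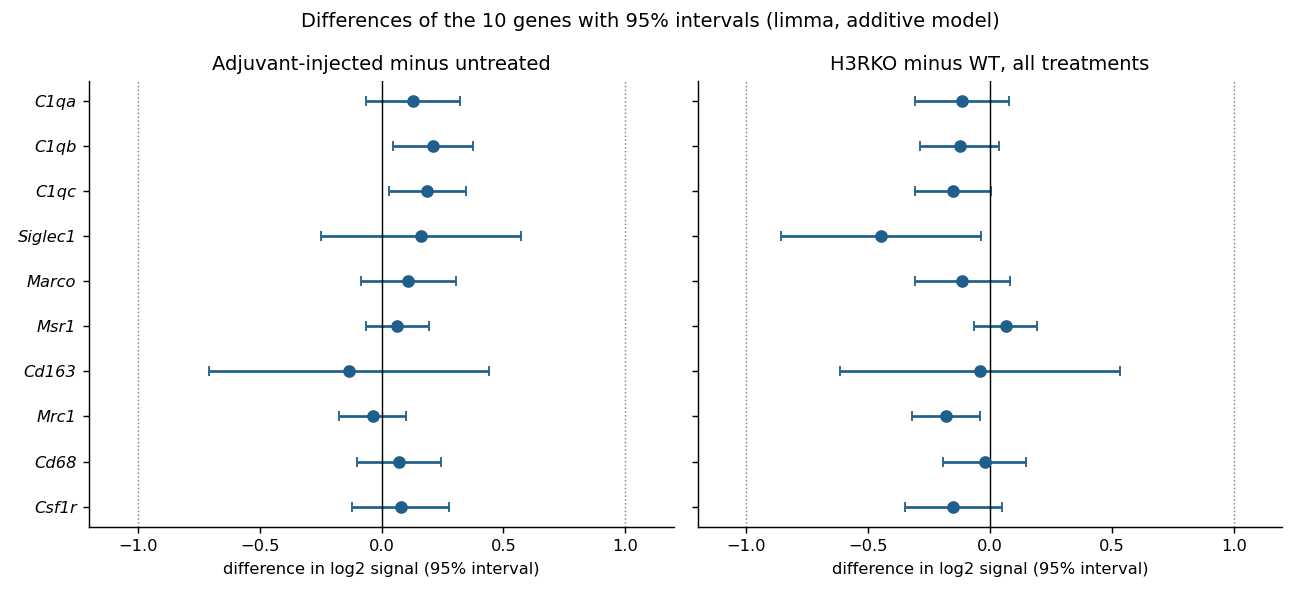
Differences in log2 signal for each gene (points) with 95% intervals (bars) from the additive limma model, for injected minus untreated LN (left) and H3RKO minus WT LN (right), with dotted lines at a 2-fold change. On the left 8 of the 10 differences are above 0, and on the right 9 of the 10 are below 0.

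Between genotypes over all treatments, 0 of the 10 genes passed at an adjusted p under 0.05, as did 0% of all genes (limma). The signal was lower in H3RKO than in WT LN for 9 of the 10, with a median difference of −0.12 against −0.01 over all genes. At an unadjusted p under 0.05, 2 genes (*Siglec1* and *Mrc1*) were lower, where 2.55% of all genes were. The linear model without moderation gave 1. Beyond *Siglec1* and *Mrc1*, *C1qc* differed by −0.15 ± 0.07, *C1qb* by −0.12 ± 0.07, *C1qa* by −0.11 ± 0.08 and *Cd68* by −0.02 ± 0.07. Without both arrays of low gland signal 7 of the 10 were lower, with a median difference of −0.05 against 0.01 over all genes. The differences were then −0.10 ± 0.09 in *C1qc*, −0.06 ± 0.09 in *C1qb*, 0.01 ± 0.09 in *C1qa* and 0.07 ± 0.08 in *Cd68*. Neither gene kept an unadjusted p under 0.05 without both arrays of low gland signal, with the gland signal as a covariate, or without any one of the 4 injected arrays, whereas leaving out untreated replicate 2 of either genotype gave 4 genes at an unadjusted p under 0.05 (3.38% of all genes without the H3RKO array and 5.83% without the WT array). The 10 genes share pools and cell types and are not independent replicates.

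Within treatments a gene passed if it had a fold change over 2 and an unadjusted p under 0.05, the criterion the study used. In untreated LN 0 of the 10 genes passed it (0.161% of all genes). Both H3RKO arrays were above both WT arrays for *Cd68* and *Msr1*, as for 12.5% of all genes, and below them for *Mrc1*, as for 20.6%. After CFA 0 of the 10 passed (0.145% of all genes) and the largest difference was −0.55 ± 0.49 in *Cd163*. After CFA+PTX 0 of the 10 passed (0.347% of all genes), and 9 were lower in H3RKO than in WT LN with a median difference of −0.26, against −0.03 over all genes. Here *C1qb* differed by −0.30 ± 0.14, *C1qa* by −0.31 ± 0.17 and *C1qc* by −0.26 ± 0.14. With the gland signal as a covariate 4 of the 10 were lower after CFA+PTX and the median was 0.13, and *C1qa* turned to 0.15 ± 0.39. With 1 array per injected group, the slope on gland signal comes only from the untreated pairs. These read 9.98 and 13.34 in WT and 12.97 and 13.50 in H3RKO LN. The slope is extended to 5.39, below every untreated array, so this fit cannot settle the sign of the genotype difference. No gene of the 10 passed for the interaction of genotype with CFA (0.412% of all genes) or with CFA+PTX (0.307%). In all 5 of these comparisons 0 of the 10 had an unadjusted p under 0.05, with limma and without moderation, whereas a moderation with an intensity trend gave *Cd68* and *C1qb* after CFA+PTX (3.23% of all genes) and *Cd68* for the interaction with CFA+PTX (2.33%). Other alternatives also gave single genes at this threshold, among them *Cd163* with the replicate block, after CFA and for the interaction with CFA. The comparison after CFA+PTX is between 1 H3RKO array with a gland signal of 13.25 and 1 WT array with 5.39. Here genotype and gland RNA cannot be told apart.

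**Figure D3:**
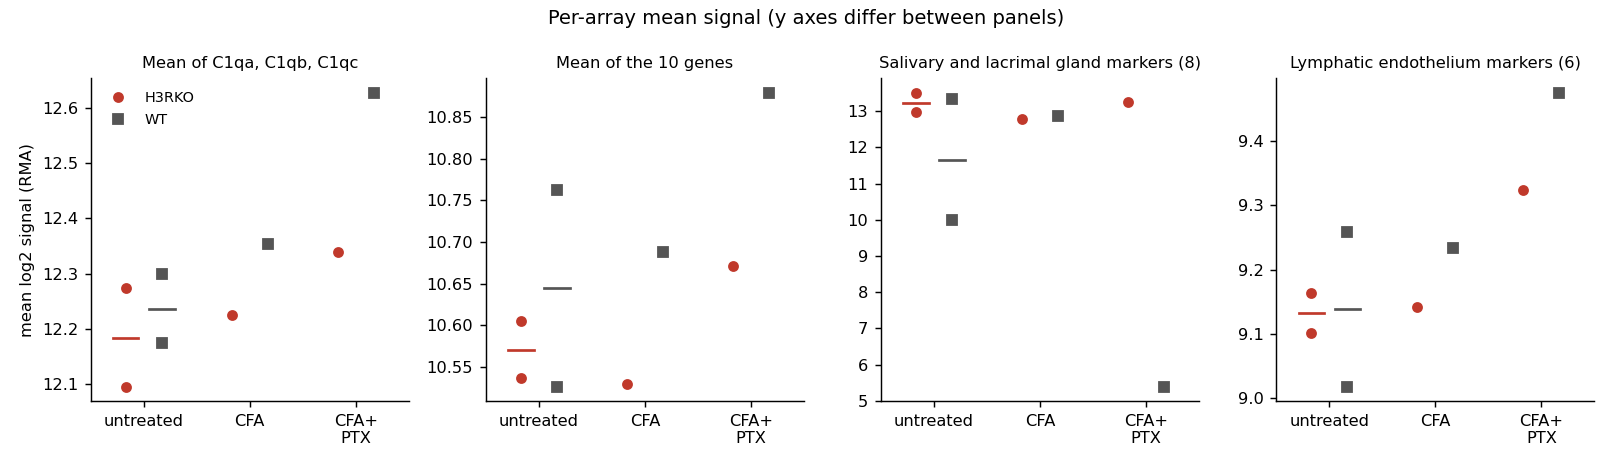
Mean log2 RMA signal per array (y axes, which differ between panels) of the C1q chains, of the 10 genes, of 8 salivary and lacrimal gland markers and of 6 lymphatic endothelium markers, by treatment (x axis), for H3RKO (circles) and WT (squares). Lines are means of 2 untreated arrays. The WT CFA+PTX array has the highest mean in the C1q, 10-gene and lymphatic endothelium panels and the lowest gland mean, at 5.39.

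Other genes of the same cells and pathways were read from lists for reference. Of 19 scavenger receptors and lectins, 13 were higher and 6 lower in injected than in untreated LN, 0 passed after adjustment, and 5 higher and 4 lower had an unadjusted p under 0.05 (limma), as did 6.04% of all genes higher and 5.05% lower. *Cd5l*, a secreted scavenger protein of tissue macrophages, had the largest difference of them, 1.14 ± 0.30 (adjusted p = 0.291, limma). It read 12.66 in H3RKO and 12.50 in WT LN after CFA and 12.55 in H3RKO and 12.48 in WT LN after CFA+PTX, against 10.72 and 12.04 in untreated H3RKO LN and 10.98 and 11.90 in untreated WT LN. The 4 injected arrays were close to each other and above all untreated arrays, whose replicates differed by far more. *Clec10a*, the galactose-type lectin CD301 of macrophages and dendritic cells, was 0.49 ± 0.08 higher in injected LN (adjusted p = 0.139) and 0.35 ± 0.08 lower in H3RKO LN (adjusted p = 0.999). *Cd209a*, a lectin of monocyte-derived dendritic cells, differed by −0.69 ± 0.13 (adjusted p = 0.196) and *Cd207*, langerin, by −0.46 ± 0.09 (adjusted p = 0.196) after injection.

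Of 15 lysosomal genes all 15 had a higher mean in injected than in untreated LN, as did 55.1% of all genes. Their median difference was 0.09, against 0.01 over all genes. At an unadjusted p under 0.05 (limma) 2 were higher (*Lgmn* and *Lamp2*), as were 6.04% of all genes, while 0 passed after adjustment. *Lgmn*, the asparaginyl endopeptidase that processes antigens, differed by 0.36 ± 0.07 (adjusted p = 0.196, limma). Of 16 genes of macrophage identity, 8 were higher and 8 lower. *Mertk*, a receptor for the uptake of dying cells, read 9.18 in H3RKO and 9.43 in WT LN after CFA and 9.61 in H3RKO and 10.04 in WT LN after CFA+PTX, against 8.98 to 9.33 in untreated LN, a difference of 0.45 ± 0.10 (adjusted p = 0.236, limma). Of 16 measured complement genes other than those of C1q, 8 were higher and 8 lower, among them the C3a receptor gene *C3ar1* (−0.40 ± 0.09, adjusted p = 0.247), *Cr2* of follicular dendritic cells and B cells (−0.25 ± 0.08), the C1q receptor candidate *Cd93* (−0.24 ± 0.08) and the properdin gene *Cfp* (0.24 ± 0.06). Of 10 genes for colony stimulating factors, their receptors and related ligands, 0 had an unadjusted p under 0.05, with a median difference of 0.01.

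*Fn1*, listed with inflammatory monocytes and made by many stromal and myeloid cells, was the 1 gene of all the lists to pass for injected against untreated LN. It was 10.27 in H3RKO and 10.19 in WT LN after CFA and 10.60 in H3RKO and 10.72 in WT LN after CFA+PTX, against 11.13 to 11.27 in untreated LN, and fell by 0.77 ± 0.06 (adjusted p = 0.0283, limma). *Retnla*, a gene of alternatively activated macrophages, differed by −0.98 ± 0.19 (adjusted p = 0.196). Of 6 markers of lymphatic endothelium, which also expresses *Mrc1*, 4 were higher and 2 lower after injection, and their mean was 9.14 to 9.48 in injected and 9.02 to 9.26 in untreated LN. *Reln* (0.61 ± 0.13) and *Lyve1* (0.31 ± 0.11) had the largest differences of these. All 12 neutrophil markers were higher in H3RKO than in WT LN over all treatments, as were 46.0% of all genes. Their median difference was 0.58, and their mean was 7.98 to 8.63 in the 4 H3RKO and 7.57 to 7.83 in the 4 WT arrays. At an unadjusted p under 0.05 (limma) 7 were higher, as were 1.29% of all genes, and 0 passed after adjustment. In untreated LN *S100a8* and *S100a9* passed the study's criterion, as did 0.161% of all genes. The median difference was 0.59 in untreated LN, 0.15 after CFA and 1.07 after CFA+PTX. The part of these other cells in the differences of the 10 genes was not tested.

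**Figure D4:**
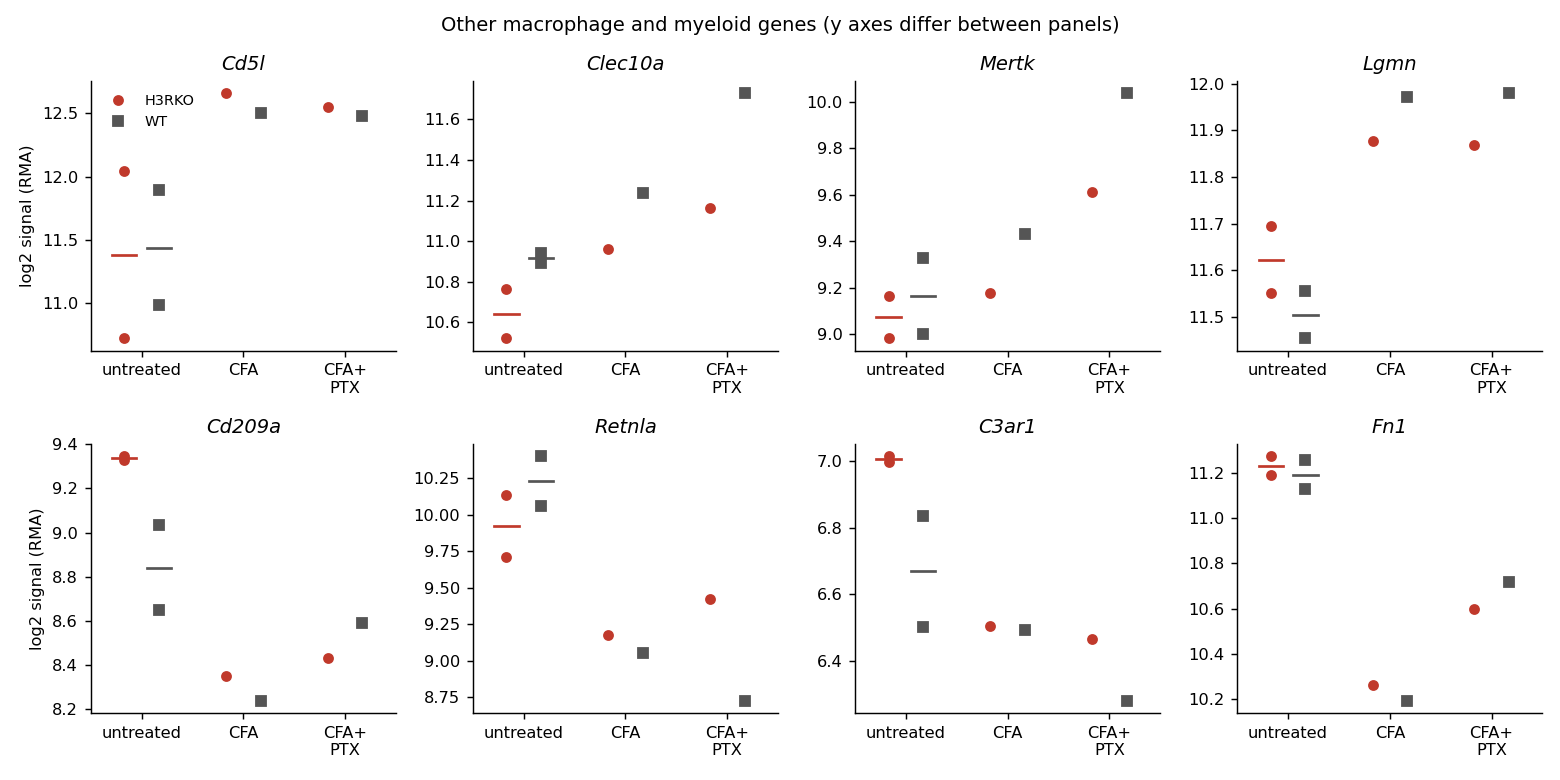
Log2 RMA signal (y axes, which differ between panels) of *Cd5l*, *Clec10a*, *Mertk*, *Lgmn*, *Cd209a*, *Retnla*, *C3ar1* and *Fn1* by treatment (x axis), for H3RKO arrays (circles) and WT arrays (squares), with lines at the means of 2 untreated arrays. *Cd5l* read 12.48 to 12.66 in all injected arrays, above the untreated ones, and *Fn1* read lower in all 4 injected arrays.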

How the data were processed

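LN RNA pools were hybridized to Affymetrix mouse genome arrays. The deposited values are log2 signals per probe set, which the authors background-corrected, quantile-normalized and summarized with the Robust Multichip Average (RMA). They ran from 2.42 to 14.40. No earlier step was repeated, and quantile normalization would remove a change shared by most genes. Of 22690 probe sets 64 controls were left out. The platform annotation pairs 20380 with 1 gene, 691 with several and 1555 with none, and only the first were named.

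Treatment effects and the overall genotype difference came from an additive model (limma 3.58.1, R 4.3.3, lmFit and eBayes, 4 residual and 3.28 prior degrees of freedom) and were called at a Benjamini-Hochberg adjusted p under 0.05. Genotype differences within treatments and interactions came from a cell-means model of the 6 groups (2 residual and 3.58 prior degrees of freedom) and the study's criterion. The p-values measure only the spread between these pools. The alternatives were no moderation, a trend, other normalization, probe set filters, the mean over probe sets, each array left out, a replicate block, other thresholds and 2 on the gland signal.

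The 10 genes and the 16 other lists (173 genes, 153 measured) were chosen with earlier results of these data known. Named genes are the 10, up to 4 of each list with the largest difference in a comparison, the 5 most correlated with *Siglec1* and with the C1q mean, and *Hrh3*. The number of arrays limits the precision, and the files hold no call of signal over background. Promoters came from RefSeq, with entries for 2 of the C1q genes. Plots used matplotlib 3.10.9 (Python 3.11.15), and exact tests scipy 1.17.1.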

Additional observations from a re-analysis of the deposited data

Results flagged for a closer look

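For 4 of the 10 genes the labelled groups moved in opposite directions under the same contrast. The share of all genes that did so was not computed. Where each group is 1 array, any opposite sign counts. *Cd68* differed between H3RKO and WT by −0.26 after CFA+PTX and by 0.09 in untreated LN, which is −0.350 apart (interaction adjusted p = 1.00, limma), and by −0.01 after CFA, which is −0.104 from the untreated value (adjusted p = 0.998). In *Msr1* the genotype difference was −0.06 after CFA+PTX and 0.11 in untreated LN, −0.166 apart (adjusted p = 1.00), and the effect of CFA+PTX was likewise −0.08 in H3RKO and 0.09 in WT LN. The other *Msr1* probe sets gave interactions with CFA+PTX of −0.43 (1422062_at), −0.20 (1425434_a_at) and −0.54 (1425435_at). None of these interactions passed. For the contrast of CFA+PTX with CFA, where each group is 1 array, the difference was not tested. There the genotype difference changed by 0.912 in *Cd163* (0.36 after CFA+PTX and −0.55 after CFA), by −0.143 in *Msr1* and by −0.0794 in *Marco* (−0.06 after CFA+PTX and 0.02 after CFA).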

How the results depend on the processing

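Over 23 alternatives the number of the 10 genes that passed was recomputed 182 times and was 0 each time. For 36 of the single-gene differences, 627 values were recomputed, of which 611 kept their direction and 16 did not. Reversals in the rest are not in this count. With the gland signal as a covariate, the genotype difference after CFA+PTX had 6 genes higher and 4 lower, against 1 and 9 without it. That in untreated LN had 5 and 5, against 3 and 7, and the interaction with CFA+PTX 6 and 4, against 2 and 8. For injected against untreated LN, leaving out 1 array at a time gave −0.306 to 0.0620 for *Cd163*, whose sign changed without H3RKO untreated replicate 1 (0.0620) and without the H3RKO CFA array (0.0378), and −0.00703 to 0.151 for *Cd68*, whose sign changed without the WT CFA+PTX array. Without both arrays of low gland signal these were 0.0638 for *Cd163* and −0.00244 for *Cd68*. For H3RKO against WT over all treatments, the same gave −0.236 to 0.132 for *Cd163* and −0.0617 to 0.0560 for *Cd68*. The sign of *Cd163* changed without H3RKO untreated replicate 2 (0.132), WT untreated replicate 1 (0.0757) or either CFA array (0.130), and that of *Cd68* without either CFA+PTX array (0.0560). *Cd68* (0.0652) and *C1qa* (0.0134) changed sign without both arrays of low gland signal, and *Cd68* (0.0721) with the gland signal as a covariate. After CFA+PTX that covariate took its slope from the untreated pairs alone. It then gave 0.490 for *Siglec1* and 0.153 for *C1qa*, against −0.75 and −0.31 without it. The cause was not tested. Both gland alternatives were chosen after seeing the data. The replicate block, fitted for the comparisons within treatments and the interactions, gave 0 passing genes. The untreated numbers were not taken as pairs, since the labels give only a number and the 2 pairs had a correlation of deviations of 0.123. With dim probe sets filtered out, 9 of the 10 genes were fitted. The comparisons after CFA+PTX could not be fitted without the array they rest on. Signal over background is not known here, which limits *Cd163* most.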

Other observations

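*Fcgr1*, the high affinity IgG receptor of monocytes and macrophages and 1 of the 16 macrophage identity genes, had the genotype difference of opposite sign in untreated and injected LN. It read 8.83 and 9.03 in untreated H3RKO LN and 8.13 and 8.61 in untreated WT LN, 9.02 in H3RKO and 9.38 in WT LN after CFA, and 8.80 in H3RKO and 9.39 in WT LN after CFA+PTX. Both H3RKO arrays were above both WT arrays before injection and each H3RKO array was below its WT array after it. The interaction of genotype with CFA+PTX was −1.15 ± 0.30 (adjusted p = 1.00, limma), and that with CFA was −0.92 ± 0.30 (adjusted p = 0.848). The first passed the thresholds of the study's criterion, as did 0.307% of all genes, although the study states them for comparisons of groups. The lowest *Fcgr1* value (8.13) and the highest (9.39) came from the 2 WT arrays of low gland signal, and it was not refitted without them. The gene was singled out after its values were seen.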
